A study of Mus musculus with 15 samples.

Results

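A set of 10 genes was followed here, all known from macrophages of bone marrow origin in the mouse brain: Ms4a7, Ms4a6c, Lilra5, Cybb, Lyz2, Hpgd, Clec12a, Tmem176a, Tmem176b and Emilin2. They were chosen by name, and their 10 rows were taken from a count table of 55487 Ensembl gene identifiers. The study sequenced RNA of snap-frozen forebrain from wild-type mice in 5 groups with 3 libraries each, 15 in all: PLX1X, PLX3X_CD0, PLX3X_CD30, IR-BMT and untreated brains (NT). The labels do not spell out PLX, the number before x, CD0, CD30 or IR-BMT, and they give no age, dose, time, bone marrow donor or cell label. Libraries of PLX3X_CD30 have that name in their descriptions but a title that says only PLX, and the names of the IR-BMT libraries end in IR. No group was sorted, so every value is from bulk forebrain, where fewer cells of a type and less RNA per cell cannot be told apart. Whether each library is its own animal is not given in the labels, and the p-values below therefore speak only of the variation among these libraries, which may be technical.

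Microglia are the resident macrophages of the brain parenchyma; they derive from the embryonic yolk sac and need signals through the receptor Csf1r to survive. When their niche is emptied, cells that derive from bone marrow can enter the brain and settle there as macrophages. In mice such cells are known to keep a transcript profile of their own, in which Ms4a7 and other genes of this set are higher than in microglia, although border-associated macrophages of vessels and meninges carry several of them too. The members act in different ways. Lilra5 and Clec12a encode surface receptors, Ms4a7, Ms4a6c, Tmem176a and Tmem176b other membrane proteins, Cybb and Lyz2 host defence enzymes, Hpgd an enzyme of prostaglandin breakdown and Emilin2 a protein of the extracellular matrix.

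Levels are given as TMM-normalised CPM, counts scaled to library size and composition, in the order of replicates 1 to 3. Each log2 fold change comes with its standard error (SE) from one edgeR quasi-likelihood fit to the counts of all 15 libraries, and adjusted p is the Benjamini-Hochberg value over all 21780 genes tested, with a threshold of 0.05. NT replicate 1 had the smallest total count, 19249641, and PLX3X_CD0 replicate 3 the largest, 54801136. NT replicate 1 stood farthest from its group mates, with a median absolute log2 distance of 0.165 against 0.071 to 0.141 elsewhere. Genes of the olfactory bulb, a list chosen after values were seen, summed to 9.43 to 220 CPM over single libraries, with differences inside every group. Choroid plexus genes summed to 1661 CPM in PLX3X_CD0 replicate 1 and 504 CPM in IR-BMT replicate 1, against 17.3 to 44.0 CPM in the other libraries. All 10 members passed the filter on low counts, but Ms4a7, Ms4a6c and Lilra5 had so few counts in PLX1X and PLX3X_CD0 that they passed through the other groups. Counts and medians over the members are therefore descriptions and support nothing by themselves.

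All 10 genes had counts in untreated forebrain, and their levels differed widely there. Per kilobase of annotated exon, the mean NT level was 12.5 CPM for Tmem176b and 10.6 CPM for Lyz2, whose libraries overlapped. Hpgd at 3.75 and Tmem176a at 3.58 CPM per kilobase came next and overlapped each other. Emilin2 followed at 0.939 and Clec12a at 0.475 CPM per kilobase. Ms4a6c at 0.229, Lilra5 at 0.154, Cybb at 0.141 and Ms4a7 at 0.129 CPM per kilobase were the lowest, and their NT libraries overlapped one another. For scale, the mean NT level of Csf1r was 28.6 and that of P2ry12, a purinergic receptor of resting microglia, 15.8 CPM per kilobase.

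**Figure D1:**
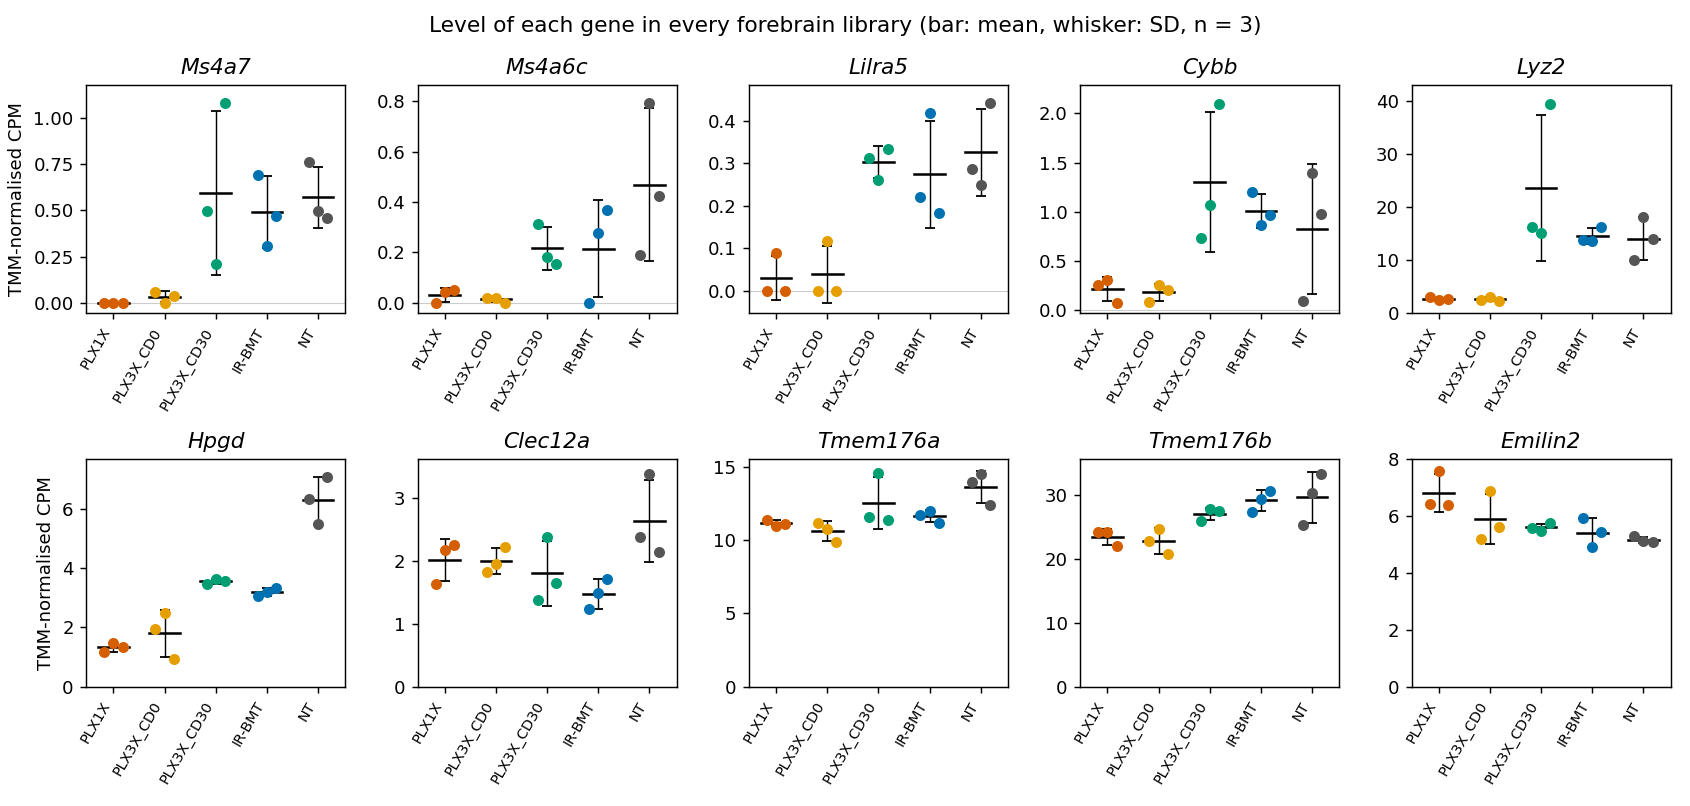
TMM-normalised CPM (vertical axis, its own linear scale per gene) of the 10 genes in each library of PLX1X, PLX3X_CD0, PLX3X_CD30, IR-BMT and NT; points are libraries, bars the mean and whiskers the SD of n = 3. Ms4a7, Ms4a6c and Lilra5 have few or no counts in PLX1X and PLX3X_CD0, Lyz2 lies at 2.26 to 3.06 CPM there, below every other library, and Clec12a, Tmem176a, Tmem176b and Emilin2 differ less between groups.

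Ms4a7 encodes a membrane-spanning protein of the MS4A family and is widely used as a marker of marrow-derived macrophages in mouse brain (ENSMUSG00000024672, mm10 chromosome 19, 11321039 to 11336146, minus strand). It had no count in any PLX1X library and 3, 0 and 2 counts, or 0.0607, 0 and 0.0373 CPM, in PLX3X_CD0. It reached 0.495, 0.209 and 1.08 CPM in PLX3X_CD30 and 0.693, 0.306 and 0.472 CPM in IR-BMT, against 0.762, 0.495 and 0.46 CPM in NT. Every PLX1X and PLX3X_CD0 library lay below every library of the other groups, and the PLX3X_CD30, IR-BMT and NT libraries overlapped. At a floor of 3 counts per library the PLX1X level was at least 8.77-fold lower than NT. The pooled PLX3X_CD0 level was 0.0614 times NT (95% exact interval 0.0192 to 0.151, counting error only), a log2 fold change of -3.98 ± 0.78 (SE, n = 3 libraries each; adjusted p = 0.00139 in edgeR; -4.67 without PLX3X_CD0 replicate 1).

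Ms4a6c encodes another protein of the MS4A family (ENSMUSG00000079419, chromosome 19, 11469366 to 11482192, plus strand). Its counts were 0, 2 and 2 in PLX1X and 1, 1 and 0 in PLX3X_CD0, at most 0.0492 CPM in a library. It stood at 0.313, 0.183 and 0.154 CPM in PLX3X_CD30 and 0, 0.278 and 0.367 CPM in IR-BMT, against 0.191, 0.792 and 0.424 CPM in NT. IR-BMT replicate 1 had no count and so lay with the low groups, and NT replicate 2 was the highest library. The log2 fold change was -3.93 ± 0.95 in PLX1X (adjusted p = 0.00713 in edgeR; -3.29 without PLX1X replicate 1) and -4.94 ± 1.05 in PLX3X_CD0 (adjusted p = 0.00201), both against NT. Ms4a6c shares 1088 exon bases with BE692007, a transcript annotated on the opposite strand. The kit does not mark strand, so reads of the pair cannot be told apart; BE692007 had 0 to 8 counts per library.

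Lilra5 encodes an activating leukocyte immunoglobulin-like receptor (ENSMUSG00000070873, chromosome 7, 4237754 to 4243463, plus strand). It had counts in PLX1X replicate 2 and PLX3X_CD0 replicate 2 alone among the 6 libraries of those groups, at 0.0886 and 0.116 CPM. The other groups held 0.313, 0.261 and 0.334 CPM in PLX3X_CD30 and 0.221, 0.418 and 0.184 CPM in IR-BMT, against 0.286, 0.248 and 0.442 CPM in NT, and they overlapped. The log2 fold change against NT was -3.40 ± 0.98 in PLX1X (adjusted p = 0.0203 in edgeR) and -3.00 ± 0.92 in PLX3X_CD0 (adjusted p = 0.0241). Each rested on few counts: without the one library that had any, the values were -6.81 in PLX1X and -6.79 in PLX3X_CD0, and without PLX1X replicate 1 the PLX1X value was -2.77. Neither call held without NT replicate 3 or without replicate 1 or 3 of the PLX group (adjusted p up to 0.0946 in PLX1X and 0.101 in PLX3X_CD0).

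Cybb encodes the membrane-bound catalytic subunit of the phagocyte NADPH oxidase, which makes superoxide (ENSMUSG00000015340, chromosome X, 9435252 to 9487771, minus strand). Its levels were 0.259, 0.31 and 0.0738 CPM in PLX1X and 0.081, 0.252 and 0.205 CPM in PLX3X_CD0. They were 0.73, 1.07 and 2.1 CPM in PLX3X_CD30 and 1.2, 0.863 and 0.97 CPM in IR-BMT, against 0.0953, 1.39 and 0.976 CPM in NT. NT replicate 1, the shallowest library, lay inside the range of PLX1X and PLX3X_CD0, so only the other 2 NT libraries stood above them. The log2 fold change was -1.98 ± 0.64 in PLX1X (adjusted p = 0.0421 in edgeR) and -2.25 ± 0.65 in PLX3X_CD0 (adjusted p = 0.0203), both against NT. The PLX1X call ended without NT replicate 2 or 3 or any 1 PLX1X library (adjusted p up to 0.165), and the PLX3X_CD0 call without NT replicate 2 or PLX3X_CD0 replicate 1 or 3 (up to 0.0885).

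Lyz2 encodes the lysozyme of myeloid cells, which cleaves bacterial cell walls (ENSMUSG00000069516, chromosome 10, 117277331 to 117282321, minus strand). It measured 2.92, 2.48 and 2.61 CPM in PLX1X and 2.43, 3.06 and 2.26 CPM in PLX3X_CD0. The remaining groups were at 16.3, 15.1 and 39.6 CPM in PLX3X_CD30 and 13.7, 13.5 and 16.2 CPM in IR-BMT, against 10, 18.1 and 13.9 CPM in NT. The 6 libraries of PLX1X and PLX3X_CD0 lay close together and far under the others, and PLX3X_CD30 replicate 3 was the highest of all 15. Against NT, Lyz2 was 5.28-fold lower in PLX1X (log2 fold change -2.40 ± 0.37, adjusted p = 0.0011 in edgeR) and 5.47-fold lower in PLX3X_CD0 (-2.45 ± 0.37, adjusted p = 0.000639). Both calls held in every alternative run. Lyz2 has a near-identical neighbour, Lyz1, whose longest transcript matched it at 96% of 1262 aligned bases, so reads could be split between them. Lyz1 counts were 1.9% to 5.79% of the Lyz2 counts in each library, and Lyz1 also fell, by 3.09 ± 0.46 in PLX1X (adjusted p = 0.00014) and 2.35 ± 0.42 in PLX3X_CD0 (adjusted p = 0.000469) on the log2 scale.

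The sequence just upstream of a RefSeq start is shown for 4 members that were low together in PLX1X and PLX3X_CD0. It follows build GRCm38.p6, printed 5′ to 3′ on the gene's strand, with bases of annotated exons left off. Capitals mark AGGAAGT or its reverse complement, a short word of the kind bound by the myeloid factor PU.1.
Lyz2, chr10:117282322-117282522, minus strand: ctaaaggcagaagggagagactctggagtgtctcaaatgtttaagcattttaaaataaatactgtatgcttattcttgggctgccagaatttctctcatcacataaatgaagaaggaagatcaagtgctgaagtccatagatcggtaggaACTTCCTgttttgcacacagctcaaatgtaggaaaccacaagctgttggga
Ms4a6c, chr19:11469118-11469365, plus strand: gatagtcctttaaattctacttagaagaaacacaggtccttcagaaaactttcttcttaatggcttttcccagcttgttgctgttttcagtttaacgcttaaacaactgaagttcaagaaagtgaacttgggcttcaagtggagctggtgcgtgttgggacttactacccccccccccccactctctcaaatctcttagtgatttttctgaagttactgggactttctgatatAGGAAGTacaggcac
Ms4a7, chr19:11336147-11336396, minus strand: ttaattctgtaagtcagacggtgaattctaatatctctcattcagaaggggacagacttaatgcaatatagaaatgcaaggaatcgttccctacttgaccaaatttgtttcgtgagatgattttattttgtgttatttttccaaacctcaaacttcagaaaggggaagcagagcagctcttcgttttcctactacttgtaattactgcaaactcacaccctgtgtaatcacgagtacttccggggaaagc
Cybb, chrX:9469325-9469574, minus strand: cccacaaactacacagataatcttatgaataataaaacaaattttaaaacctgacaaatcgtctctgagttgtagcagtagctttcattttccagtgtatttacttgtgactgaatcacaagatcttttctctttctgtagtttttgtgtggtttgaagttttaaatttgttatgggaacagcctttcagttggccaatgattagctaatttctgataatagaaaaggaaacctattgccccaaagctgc
In Lyz2 the word lay on the opposite strand, starting 100 bases before the RefSeq start, and in Ms4a6c on the gene's own strand, starting 17 bases before it. Ms4a7 and Cybb held no match in this window. The Cybb window lies inside the annotated gene, 9435252 to 9487771, and downstream of its annotated 5′ end. All 10 members were found in the RefSeq promoter table, whose windows run from 250 bases before to 50 after a start, and both strands were searched. AGGAAGT was in 3 of the 10 members (Lyz2, Ms4a6c and Tmem176a) and in 9.57% of 27025 promoters. The longer GAGGAAGT was in 0 of 10 and in 3.28% of promoters, and GAGGAAG, which overlaps it, was in 2 of 10 and in 13.5%. The word AGAGGAA, which overlaps both, was in 3 of 10 members and in 10.5% of promoters, and the related word GGGAAGT in 1 of 10 and in 5.67%. The words were chosen with these results in view, and a match is a description of the letters only.

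Hpgd encodes the dehydrogenase that inactivates prostaglandins (ENSMUSG00000031613, chromosome 8, 56294585 to 56321043, plus strand). It was at 1.18, 1.48 and 1.33 CPM in PLX1X and 1.96, 2.5 and 0.932 CPM in PLX3X_CD0. It measured 3.47, 3.63 and 3.57 CPM in PLX3X_CD30 and 3.06, 3.2 and 3.33 CPM in IR-BMT, against 6.34, 5.49 and 7.09 CPM in NT. The groups fell into 3 tiers that did not overlap: PLX1X and PLX3X_CD0 at the bottom, PLX3X_CD30 and IR-BMT in the middle, and NT at the top. Hpgd was 4.74-fold lower in PLX1X than in NT (log2 fold change -2.24 ± 0.25, adjusted p = 7.23e-06 in edgeR) and 3.51-fold lower in PLX3X_CD0 (-1.81 ± 0.24, adjusted p = 2.56e-05). It was 1.97-fold lower in IR-BMT (-0.98 ± 0.24, adjusted p = 0.00369), a call that held in every alternative run. In PLX3X_CD30 it was 1.78-fold lower (-0.83 ± 0.23, adjusted p = 0.0397), but that call ended without NT replicate 1 or 3 or any 1 PLX3X_CD30 library, with values of -0.92 to -0.73 and adjusted p up to 0.118.

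Clec12a encodes an inhibitory C-type lectin receptor of myeloid cells (ENSMUSG00000053063, chromosome 6, 129342691 to 129365303, plus strand). Its levels were 1.63, 2.17 and 2.24 CPM in PLX1X and 1.82, 1.94 and 2.22 CPM in PLX3X_CD0. They were 1.38, 2.37 and 1.64 CPM in PLX3X_CD30 and 1.23, 1.48 and 1.7 CPM in IR-BMT, against 2.38, 3.37 and 2.14 CPM in NT. The PLX groups overlapped NT, and the 3 IR-BMT libraries lay below it. In IR-BMT Clec12a was 1.78-fold lower (log2 fold change -0.84 ± 0.25, adjusted p = 0.014 in edgeR), a call that ended without NT replicate 2 or IR-BMT replicate 1 (adjusted p up to 0.0972). The difference from NT was -0.39 ± 0.24 in PLX1X (adjusted p = 0.28) and -0.40 ± 0.24 in PLX3X_CD0 (adjusted p = 0.251), where Csf1r was lower by 4.19 ± 0.39 and 4.66 ± 0.40.

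Tmem176a and Tmem176b encode related membrane proteins known from dendritic cells of the mouse, and the genes stand head to head (chromosome 6; Tmem176a ENSMUSG00000023367, 48840919 to 48847071, plus strand; Tmem176b ENSMUSG00000029810, 48833818 to 48841496, minus strand). They share 81 exon bases on opposite strands, so a part of their reads cannot be told apart. Tmem176b stood at 24.2, 24.1 and 22 CPM in PLX1X and 22.8, 24.7 and 20.7 CPM in PLX3X_CD0. It was at 25.9, 27.7 and 27.4 CPM in PLX3X_CD30 and 27.3, 29.4 and 30.6 CPM in IR-BMT, against 25.2, 30.3 and 33.2 CPM in NT. All PLX1X and PLX3X_CD0 libraries lay below the NT libraries, by a small margin. The log2 fold change of Tmem176b was -0.34 ± 0.09 in PLX1X (adjusted p = 0.012 in edgeR) and -0.39 ± 0.09 in PLX3X_CD0 (adjusted p = 0.0042). The PLX1X call ended without NT replicate 3 or PLX1X replicate 3 (adjusted p up to 0.0729).

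Tmem176a was still flatter, at 9.90 to 14.6 CPM over the 15 libraries. It measured 11.4, 11 and 11.1 CPM in PLX1X and 11.2, 10.8 and 9.9 CPM in PLX3X_CD0, against 14, 14.5 and 12.4 CPM in NT. The NT libraries lay above both PLX groups. Its log2 fold change was -0.36 ± 0.10 in PLX3X_CD0 (adjusted p = 0.0165 in edgeR), a call that ended without NT replicate 2 or PLX3X_CD0 replicate 3 (adjusted p up to 0.0847). In PLX1X it was -0.29 ± 0.10 and missed the threshold (adjusted p = 0.0566), which it passed in 5 alternatives, among them the fit without NT replicate 3 (adjusted p down to 0.0204). PLX3X_CD30, at 11.6, 14.6 and 11.4 CPM, and IR-BMT, at 11.7, 12 and 11.2 CPM, gave values of -0.12 ± 0.10 (adjusted p = 0.539) and -0.23 ± 0.10 (adjusted p = 0.108) against NT.

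Emilin2 encodes a glycoprotein of the extracellular matrix (ENSMUSG00000024053, chromosome 17, 71252172 to 71311978, minus strand). It went the other way, at 6.44, 7.58 and 6.4 CPM in PLX1X, against 5.29, 5.12 and 5.1 CPM in NT, and was the member whose PLX1X libraries all lay above NT. Its log2 fold change there was 0.40 ± 0.13 (adjusted p = 0.0441 in edgeR). That call ended without NT replicate 2 or 3 or any 1 PLX1X library, and also when libraries were scaled by their totals alone (adjusted p up to 0.168 over the alternatives). PLX3X_CD0 at 5.18, 6.9 and 5.63 CPM, PLX3X_CD30 at 5.58, 5.48 and 5.75 CPM and IR-BMT at 5.92, 4.9 and 5.45 CPM overlapped one another, and their differences from NT did not pass (0.19 ± 0.13, 0.12 ± 0.13 and 0.07 ± 0.14, adjusted p = 0.332, 0.671 and 0.741), the last of which was -0.06 with libraries scaled by totals alone.

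**Figure D2:**
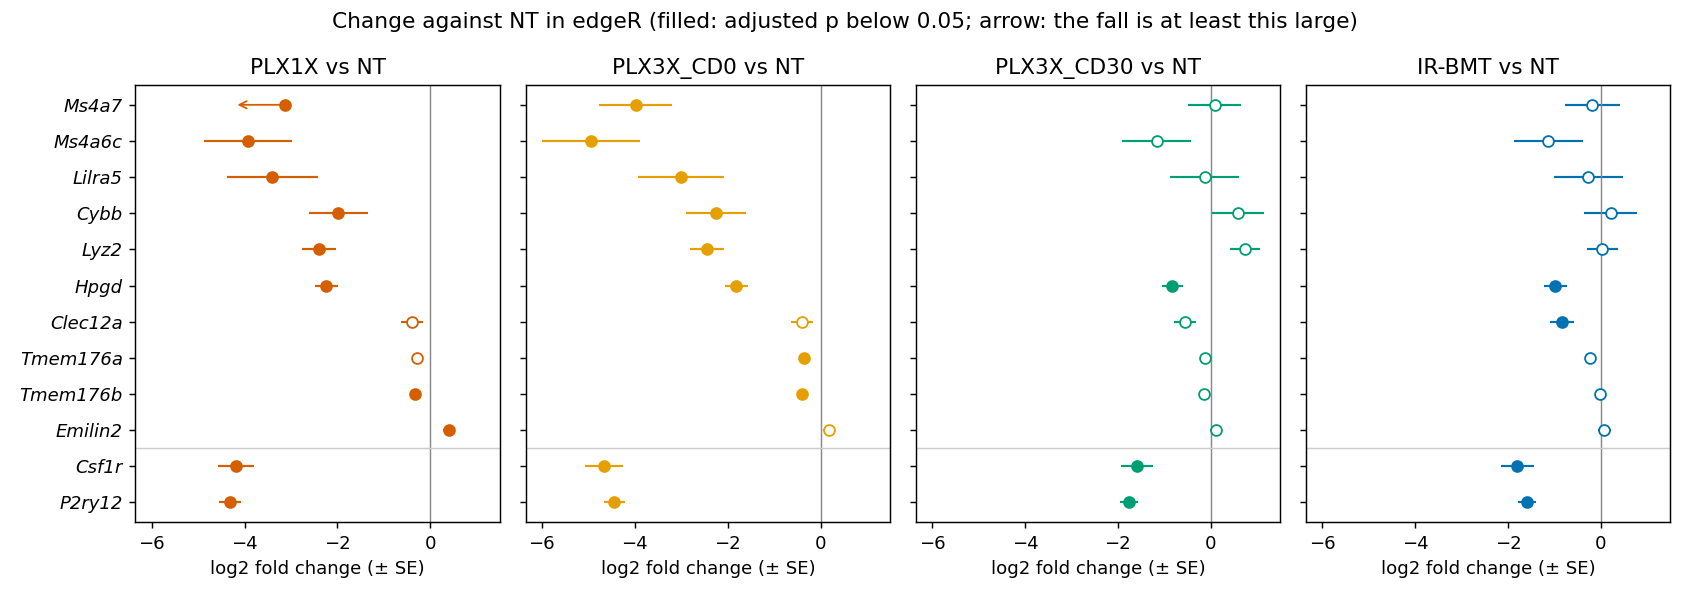
Log2 fold change against NT (horizontal axis, ± SE) of the 10 genes and of Csf1r and P2ry12 in PLX1X, PLX3X_CD0, PLX3X_CD30 and IR-BMT; filled points passed the threshold and the arrow marks the bound of -3.13 for Ms4a7, which had no PLX1X count. In PLX3X_CD30 the members run from -1.16 (Ms4a6c) to 0.74 (Lyz2) and in IR-BMT from -1.13 (Ms4a6c) to 0.21 (Cybb), with Csf1r and P2ry12 between -1.80 and -1.59.

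Counted over the set, 7 of 10 members were lower in PLX1X than in NT and 1, Emilin2, was higher, where 8.12% of all tested genes were called lower and 9.97% higher. In PLX3X_CD0, 8 of 10 were lower, against 9.53% of all genes. The member medians were -2.11 in PLX1X, with Ms4a7 at its bound, and -2.03 in PLX3X_CD0 on the log2 scale, beside all-gene medians of -0.045 and -0.028. Members lower in both were Ms4a7, Ms4a6c, Lilra5, Cybb, Lyz2, Hpgd and Tmem176b, and both comparisons use the same NT libraries. The label of the set as macrophage genes fitted its members unequally in bulk forebrain: in PLX1X and PLX3X_CD0, Csf1r was at 5.45% and 3.95% of its mean NT level, whereas Clec12a was at 76.6% and 75.9%, Tmem176a at 81.7% and 78.0%, Tmem176b at 79.3% and 76.9%, and Emilin2 at 132% and 114%. Whether marrow-derived cells carried any of these transcripts was not measured, since no library was sorted by origin. Leaving out 1 library moved the number of members called in PLX1X from 8 to as few as 4, without PLX1X replicate 3, and to 5 without PLX1X replicate 1 or NT replicate 3. In PLX3X_CD0 the count was 5 without replicate 3 of that group.

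PLX3X_CD0 and PLX1X were also compared with each other. PLX3X_CD0 against PLX1X called 0 of 10 members in edgeR, 0 at an unadjusted p under 0.05 and 0 in DESeq2, where edgeR called 2.46% of all genes in either direction, so that 0 of 10 is near the background and says nothing particular of the members. Hpgd came to 0.43 ± 0.25 (adjusted p = 0.439), with PLX3X_CD0 replicate 3 below all PLX1X libraries and its other 2 libraries above them. Ms4a7 had 5 counts in the 3 PLX3X_CD0 libraries and none in PLX1X, a difference that is at or under the floor in every library.

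Against PLX3X_CD0, the level was higher in PLX3X_CD30 for 4 of 10 members, where 1.87% of all genes were called higher. Ms4a7 was 18.4 times its pooled PLX3X_CD0 level (95% exact interval 7.53 to 58.6, counting error only), a log2 fold change of 4.08 ± 0.77 (adjusted p = 0.00517 in edgeR; 4.76 without PLX3X_CD0 replicate 1). Lyz2 was 9.16-fold higher (3.20 ± 0.37, adjusted p = 0.000627; 2.60 without PLX3X_CD30 replicate 3). Cybb was 7.12-fold higher (2.83 ± 0.64, adjusted p = 0.0195) and Hpgd 1.98-fold higher (0.98 ± 0.24, adjusted p = 0.025). All 3 libraries of PLX3X_CD30 lay above all 3 of PLX3X_CD0 for each of these genes. The same separation held for Ms4a6c (3.78 ± 1.12, adjusted p = 0.0709) and Lilra5 (2.87 ± 0.92, adjusted p = 0.0997), which missed the threshold. Without PLX3X_CD0 replicate 2, the one PLX3X_CD0 library with Lilra5 counts, Lilra5 was at 6.66 and passed. The median over the members was 1.91, beside 0.000 over all genes.

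Those 4 calls were not equally stable. The Ms4a7 and Lyz2 calls held whichever library was left out, Ms4a7 at 3.33 without PLX3X_CD30 replicate 3. Cybb did not pass without PLX3X_CD30 replicate 3 or PLX3X_CD0 replicate 1 or 3 (adjusted p up to 0.087). Hpgd did not pass without any 1 PLX3X_CD30 library or without PLX3X_CD0 replicate 1 or 3 (adjusted p up to 0.091). The number of members called was thus 2 without PLX3X_CD30 replicate 3 and also without PLX3X_CD0 replicate 1 or 3.

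In IR-BMT, 7 of 10 members were higher than in PLX3X_CD0, where 10.1% of all genes were called higher. Ms4a7 had 14.9 times its pooled PLX3X_CD0 level (95% exact interval 5.99 to 47.9), with a log2 fold change of 3.79 ± 0.79 (adjusted p = 0.00234 in edgeR; 4.49 without PLX3X_CD0 replicate 1). Lyz2 was 5.60-fold higher (2.48 ± 0.37, adjusted p = 0.000734) and Cybb 5.51-fold higher (2.46 ± 0.65, adjusted p = 0.0123). Both genes were higher in all 3 IR-BMT libraries than in any PLX3X_CD0 library. Ms4a6c (3.81 ± 1.13, adjusted p = 0.0202), Lilra5 (2.73 ± 0.94, adjusted p = 0.0434), Hpgd (0.83 ± 0.24, adjusted p = 0.0191) and Tmem176b (0.36 ± 0.09, adjusted p = 0.00766) made up the rest, with a median of 1.65 over the members beside -0.020 over all genes. Ms4a6c, Lilra5 and Hpgd were not called without PLX3X_CD0 replicate 3 or IR-BMT replicate 2 or 3, and Tmem176b was not called without PLX3X_CD0 replicate 3, which left 3 or 4 members. Lilra5 was also not called without PLX3X_CD0 replicate 1 or IR-BMT replicate 1, nor Cybb without PLX3X_CD0 replicate 1 (adjusted p = 0.0516). Without PLX3X_CD0 replicate 2 the Lilra5 value was 6.52, and without IR-BMT replicate 3 the Ms4a6c value was 3.21. The calls of Ms4a7 and Lyz2 held without any 1 library.

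Measured against NT, few members differed in PLX3X_CD30 and IR-BMT. In PLX3X_CD30 1 of 10 members, Hpgd, was lower and 0 were higher in edgeR, where 1.84% of all genes were called lower and 4.74% higher. At an unadjusted p under 0.05 there were 3 members in that comparison, and DESeq2 called 1. In IR-BMT 2 of 10, Hpgd and Clec12a, were lower and 0 higher, against 15.4% lower and 15.1% higher among all genes, so the share of members was near the background. There 3 members were at an unadjusted p under 0.05 and DESeq2 called 2. Leaving out NT replicate 1 or 3 or any 1 PLX3X_CD30 library left 0 members called in PLX3X_CD30, and leaving out NT replicate 2 or IR-BMT replicate 1 left 1 in IR-BMT. The member medians were -0.13 in PLX3X_CD30 and -0.21 in IR-BMT, beside all-gene medians of -0.022 and -0.047.

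As a share of the mean NT level, Lyz2 stood at 169% in PLX3X_CD30 and 103% in IR-BMT, and Cybb at 159% and 123%. Ms4a7 stood at 104% and 85.7%, Lilra5 at 93.0% and 84.3%, Hpgd at 56.3% and 50.7%, and Ms4a6c at 46.2% and 45.9%, in the same order of groups. Csf1r was at 33.3% and 28.7% and P2ry12 at 29.5% and 33.1% of NT. These macrophage genes were called lower in both groups, Csf1r by 1.59 ± 0.34 in PLX3X_CD30 (adjusted p = 0.0232; not passed without any 1 PLX3X_CD30 library, adjusted p up to 0.09) and by 1.80 ± 0.35 in IR-BMT (adjusted p = 0.00277). The difference between a member and Csf1r was not itself tested. The Lyz2 difference in PLX3X_CD30 (0.74 ± 0.33, adjusted p = 0.226) became 0.16 without replicate 3 of that group. The values for Ms4a7 (0.09 ± 0.57 in PLX3X_CD30, adjusted p = 0.951) and Cybb (0.58 ± 0.56, adjusted p = 0.603) have wide errors, so a level like that of NT was not shown. For Cybb, the NT mean includes replicate 1 at 0.0953 CPM, beside 1.39 and 0.976 CPM in the other NT libraries. Its PLX3X_CD30 mean includes replicate 3 at 2.1 CPM, beside 0.73 and 1.07 CPM.

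**Figure D3:**
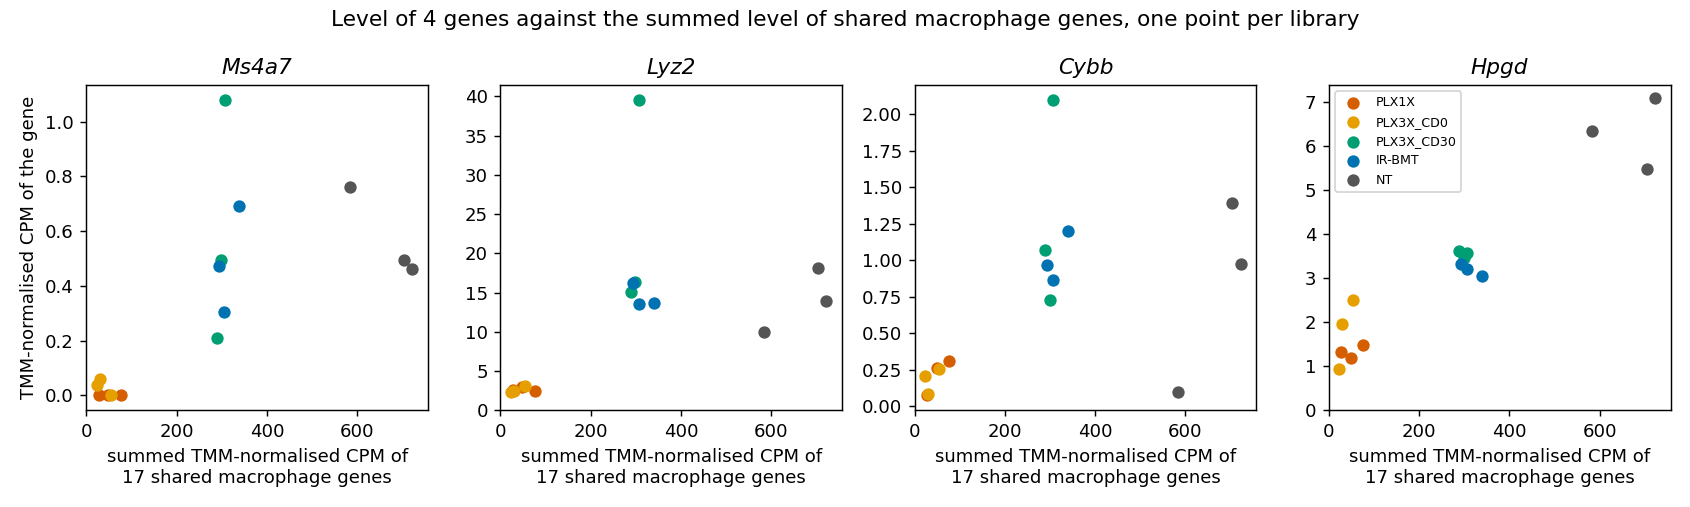
TMM-normalised CPM of Ms4a7, Lyz2, Cybb and Hpgd (vertical axis, own scale per gene) against the summed CPM of 17 genes shared by microglia and other macrophages (horizontal axis), one point per library of PLX1X, PLX3X_CD0, PLX3X_CD30, IR-BMT and NT. PLX3X_CD30 and IR-BMT sit at 289 to 339 summed CPM, under the NT libraries at 583 to 722. Their Hpgd lies under the NT range, and their Lyz2 in it or, in PLX3X_CD30 replicate 3, above it. Their Ms4a7 spreads around the NT range of 0.46 to 0.762 CPM. Replicate 2 of PLX3X_CD30 (0.209 CPM) and of IR-BMT (0.306 CPM) lie below that range and PLX3X_CD30 replicate 3 (1.08 CPM) above it. The NT range of Cybb is wide, 0.0953 to 1.39 CPM, and libraries of PLX1X and PLX3X_CD0 lie in it too.

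In IR-BMT against PLX3X_CD30 edgeR called 0 of 10 members, with 0 at an unadjusted p under 0.05 and 0 in DESeq2, where 16.5% of all genes were called in either direction. Lyz2 differed by -0.71 ± 0.33 (adjusted p = 0.181), which became -0.12 without PLX3X_CD30 replicate 3. For Ms4a7 the value was -0.28 ± 0.58 (adjusted p = 0.8; 0.47 without that library) and for Hpgd -0.15 ± 0.24 (adjusted p = 0.729). The libraries of both groups overlapped for Ms4a7, and the 3 Hpgd libraries of IR-BMT lay just under those of PLX3X_CD30.

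PLX3X_CD30 replicate 3 had the highest Ms4a7, Cybb, Lyz2 and Lyz1 level of all 15 libraries, with Lyz2 at 39.6 CPM against 16.3 and 15.1 CPM in its group mates and Lyz1 at 1.36 against 0.6 and 0.652 CPM. Its Hpgd (3.57 CPM) and Csf1r (55.6 CPM) levels were like those of its mates. The 17 shared macrophage genes summed to 307 CPM there against 299 and 289 CPM, and border-associated macrophage genes to 17.0 against 19.6 and 15.1 CPM. Cd74, a chaperone of antigen presentation named after its values were seen, was at 23.8 CPM there against 10.5 and 7.41 CPM. The olfactory bulb sum was 75.1 CPM there against 17.6 and 16.3 CPM. Higher bulb sums were found in 4 libraries, PLX3X_CD0 replicate 2 (220 CPM), IR-BMT replicates 2 and 3 (95.5 and 122 CPM) and NT replicate 3 (198 CPM), with Lyz2 at 3.06, 13.5, 16.2 and 13.9 CPM. The part of bulb tissue in the member values was not tested.

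Lists around the members give the setting of these values. Among genes that microglia have in common with other macrophages, all 17 that were tested were lower in PLX1X (median -3.69) and PLX3X_CD0 (-4.40), 7 were lower in PLX3X_CD30 (-1.06) and 10 in IR-BMT (-1.02), against NT. Among all genes, 8.12%, 9.53%, 1.84% and 15.4% were called lower in these comparisons. Of 11 microglia-restricted genes, 9, 9, 7 and 7 were lower in the same comparisons, with medians of -4.09, -4.02, -1.37 and -0.92. Of 8 border-associated macrophage genes, 6, 6, 1 and 1 were lower, with medians of -2.72, -2.57, -0.67 and -0.18, and the IR-BMT count is near the background. The member medians of -2.11, -2.03, -0.13 and -0.21 lay above those of the shared and microglia-restricted lists in all 4 comparisons with NT, and no test compared the lists. These medians include Clec12a, Tmem176a, Tmem176b and Emilin2. Those 4 genes stayed at 75.9% to 132% of NT in PLX1X and PLX3X_CD0, where Csf1r was at 5.45% and 3.95%. Without PLX3X_CD30 replicate 2 or 3, 4 of the 17 shared genes were called lower in PLX3X_CD30.

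**Figure D4:**
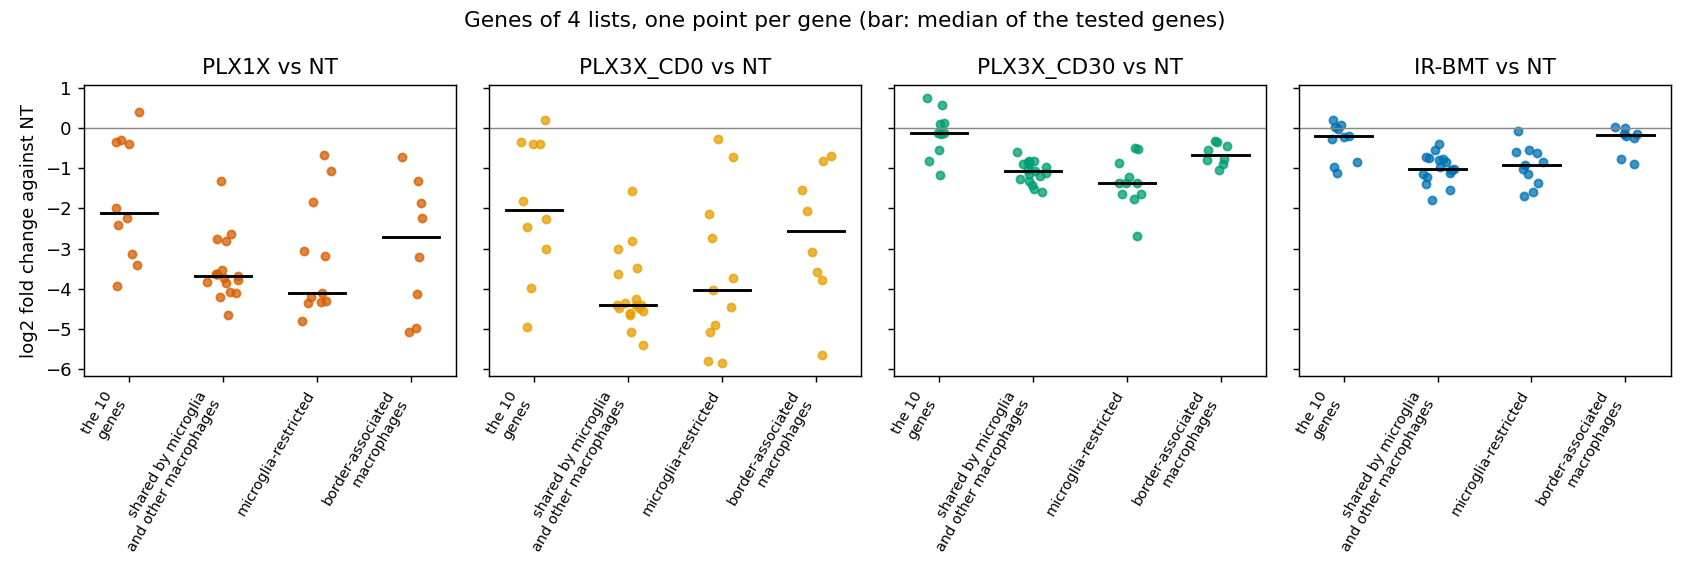
Log2 fold change against NT (vertical axis) of each tested gene of 4 lists, in PLX1X, PLX3X_CD0, PLX3X_CD30 and IR-BMT; points are genes, bars medians, and Ms4a7 is drawn at its bound in PLX1X. The 10 genes have medians of -0.13 in PLX3X_CD30 and -0.21 in IR-BMT, where the 17 shared macrophage genes have -1.06 and -1.02 and the border-associated macrophage genes -0.67 and -0.18. Among the 10 are Clec12a, Tmem176a, Tmem176b and Emilin2, which stayed at 75.9% to 132% of NT in PLX1X and PLX3X_CD0.

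The partners of Cybb in the NADPH oxidase moved with it at the low end. All 5 tested subunits were lower in PLX1X (median -2.59) and PLX3X_CD0 (-3.10) than in NT, Cyba, the membrane partner of Cybb, by 1.44 ± 0.16 in PLX1X (adjusted p = 8.58e-06 in edgeR) and by 1.56 ± 0.16 in PLX3X_CD0 (adjusted p = 1.68e-06). In PLX3X_CD30, 3 of 5 were still lower than NT, among them Cyba by 0.59 ± 0.16 (adjusted p = 0.0316) and the GTPase gene Rac2 by 1.39 ± 0.37 (adjusted p = 0.0322). The Cybb value there was on the other side of NT, higher by 0.58 ± 0.56, and was not called. None of the 5 was called there without PLX3X_CD30 replicate 2 or 3, and 1 was without NT replicate 2 or 3 or PLX3X_CD30 replicate 1 (adjusted p of the named genes up to 0.145). In IR-BMT edgeR called 0 of 5, with 1 at an unadjusted p under 0.05 and 0 in DESeq2 (median -0.43). Among all genes, 8.12%, 9.53%, 1.84% and 15.4% were called lower in PLX1X, PLX3X_CD0, PLX3X_CD30 and IR-BMT. The 0 of 5 in IR-BMT is near that background. All 5 were higher in PLX3X_CD30 and in IR-BMT than in PLX3X_CD0, where 1.87% and 10.1% of all genes were called higher. In PLX3X_CD30, 1 to 3 of the 5 were called without PLX3X_CD0 replicate 1 or 3 or any 1 PLX3X_CD30 library.

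In the MS4A family, 3 genes beside the members passed the filter. Ms4a6b and Ms4a6d were lower in PLX1X (-2.63 ± 0.50 and -3.16 ± 0.60, adjusted p = 0.0011 and 0.00114 in edgeR) and in PLX3X_CD0 (-2.88 ± 0.50 and -3.80 ± 0.63, adjusted p = 0.000368 and 0.000239). Against NT, 0 of 3 were called in PLX3X_CD30 or IR-BMT, with 0 at an unadjusted p under 0.05 and 0 in DESeq2. Among all genes, 1.84% and 15.4% were called lower and 4.74% and 15.1% higher in these comparisons. The 0 of 3 is near that background, and a level like that of NT was not shown. Means of Ms4a6b and Ms4a6d were 0.828 and 0.847 CPM in PLX3X_CD30 and 0.846 and 0.647 CPM in IR-BMT, against 1.34 and 1.2 CPM in NT. The remaining tested gene, Ms4a15, varied inside groups. It reached 21.8 CPM in PLX3X_CD0 replicate 2, 9.29 CPM in PLX3X_CD30 replicate 3 and 24.2 CPM in NT replicate 3. In IR-BMT replicates 2 and 3 it stood at 7.91 and 10.1 CPM. These were the libraries with much olfactory bulb signal in their groups.

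Around Hpgd, 2 of 6 genes of prostaglandin synthesis and transport were lower in PLX1X and in PLX3X_CD0, Hpgds, a prostaglandin D synthase of macrophages, with log2 fold changes of -3.21 ± 0.23 and -3.19 ± 0.23 (adjusted p = 4.08e-08 and 2.42e-08 in edgeR) and the cyclooxygenase gene Ptgs1 with -0.53 ± 0.12 and -0.81 ± 0.12 (adjusted p = 0.00483 and 8.13e-05). Hpgds stayed lower than NT in PLX3X_CD30, by 1.32 ± 0.21 (adjusted p = 0.00125), and in IR-BMT, by 1.64 ± 0.22 (adjusted p = 1.68e-05), as Hpgd did. Ptges, a prostaglandin E synthase gene, was higher in IR-BMT (0.64 ± 0.18, adjusted p = 0.00948). Among all genes, 8.12%, 9.53%, 1.84% and 15.4% were called lower in PLX1X, PLX3X_CD0, PLX3X_CD30 and IR-BMT against NT. In IR-BMT 15.1% were called higher, so 1 of 6 there is near the background. Beside Lilra5, only the inhibitory receptor gene Pirb of its family list was tested, and it was lower in PLX1X (-2.14 ± 0.64, adjusted p = 0.0244) and PLX3X_CD0 (-1.82 ± 0.61, adjusted p = 0.0401). Both Pirb calls ended without NT replicate 2 or 3 and without replicate 1 of the PLX group, the PLX1X call also without PLX1X replicate 3 and the PLX3X_CD0 call without NT replicate 1 or PLX3X_CD0 replicate 2 (adjusted p up to 0.106 and 0.132).

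Of 10 other tested genes reported for marrow-derived brain macrophages, 2 were lower and 1 higher in PLX1X and in PLX3X_CD0, 1 was higher in PLX3X_CD30, and 1 was lower and 1 higher in IR-BMT, against NT. Among all genes, 8.12%, 9.53%, 1.84% and 15.4% were called lower and 9.97%, 12.2%, 4.74% and 15.1% higher, and nothing is read from counts this small. Without PLX1X replicate 3 the number called in PLX1X was 1, and without NT replicate 1 or 2 that in PLX3X_CD30 was 2. The higher gene was the integrin gene Itga4 each time, by 0.79 ± 0.15 in PLX1X, 1.2 ± 0.15 in PLX3X_CD0, 0.80 ± 0.15 in PLX3X_CD30 and 0.60 ± 0.15 in IR-BMT (adjusted p = 0.00129, 1.39e-05, 0.0041 and 0.00567 in edgeR). Itga4 was lower in IR-BMT than in PLX3X_CD0, by 0.60 ± 0.15 (adjusted p = 0.00647), where 11.4% of all genes were called lower. Pilra, a paired immunoglobulin-like receptor gene, was lower in PLX3X_CD0 than in NT by 2.89 ± 0.76 (adjusted p = 0.01) and higher in PLX3X_CD30 than in PLX3X_CD0 by 3.11 ± 0.75 (adjusted p = 0.0224; not passed without any 1 PLX3X_CD0 library or PLX3X_CD30 replicate 2, up to 0.176). Both comparisons use the PLX3X_CD0 libraries, where Pilra was at 0.0388 to 0.0746 CPM, near the floor of 3 counts, so the size of both differences is uncertain.

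Of the blood cell markers, 4 of 9 neutrophil, 2 of 7 monocyte and 3 of 7 lymphocyte genes had enough counts to be tested. Neutrophil genes summed to 0.749 to 2.75 CPM over the 15 libraries, with no called member in any of the 8 comparisons, 0 at an unadjusted p under 0.05 and 0 in DESeq2. Among all genes, 2.46% to 30.6% were called in either direction in these comparisons, and nothing is read from 0 of 4 genes at such low levels. Monocyte genes summed to 8.22 to 10.7 CPM in IR-BMT and 12.3 to 14.3 CPM in NT, and lymphocyte genes to 13.7 to 17.6 CPM in IR-BMT and 6 to 11.6 CPM in NT. One gene carried each of the last sums, Vcan with a mean of 7.83 CPM in IR-BMT and 11.6 CPM in NT, and Trbc2 with 15.1 CPM in IR-BMT and 8.75 CPM in NT. Vcan, which other brain cells also express, was lower (-0.57 ± 0.11, adjusted p = 0.000661 in edgeR) and Trbc2, a T cell receptor constant gene, higher in IR-BMT (0.82 ± 0.25, adjusted p = 0.0247; not passed without IR-BMT replicate 1 or 2, up to 0.0657). Trbc2 was the 1 lymphocyte gene called there, where 15.1% of all genes were called higher. The 3 tested lymphocyte genes ran from -0.71 to 0.82 (median 0.62). Numbers of T cells were not measured, and the part of blood cells in the member values was not tested.

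Across the 15 libraries the members varied together to different degrees, described here by Pearson r of log2 CPM without a test, since libraries of a group share their treatment. Ms4a7 and Lyz2 went together most closely (r = 0.923, n = 15). Emilin2 was negatively related to all 9 others, down to -0.671 with Ms4a7, and Clec12a had r of -0.192 to 0.456 with the others. Among tested genes whose mean log2 CPM was 1 or more, those most like Ms4a7 were Kcnk6, Pdlim7 and Lyz2 (0.935, 0.927 and 0.923). Those most like Lyz2 were Pld4, Lamtor4 and Unc93b1 (0.913, 0.909 and 0.902), and those most like Cybb were Cd74, H2-Ab1 and Lyz2 (0.872, 0.848 and 0.843). Lilra5 was most like P2ry13, Itgb2 and C1qc (0.946, 0.945 and 0.94), and Hpgd most like Slc2a5 and Lpcat2 (0.957 and 0.951). P2ry13 and Slc2a5 are on the microglia-restricted list, and C1qc is on the list shared by microglia and other macrophages. Ms4a6c came closest to Tgfbi, Msn and Sipa1 (0.875, 0.859 and 0.858) and Tmem176b to Ctsz, Tnfrsf1a and Ptpn6 (0.932, 0.928 and 0.917). Tmem176a came closest to Itpripl2, B2m and Car8 (0.885, 0.867 and 0.861), Clec12a to 4921531C22Rik, Fgf3 and Foxn2 (0.854, 0.838 and 0.836) and Emilin2 to Ik, Zfp811 and Zfp560 (0.885, 0.869 and 0.854).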

How the data were processed

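Bulk RNA-seq of 15 forebrain libraries was deposited as a table of counts per gene and library, with CPM beside them. The authors' counts and CPM were made with tools that, per the submitters' processing notes, included DRAGEN and DESeq2 on mm10. Which versions, gene annotation or strand option were used is not given in the sources used here. Deposited CPM values equalled each count over its library total to within 1.86e-06 percent. Of counts from 1 to 4, 70.6 to 74.7% were even in each library, so read ends may have been counted separately and counting intervals, which cover counting error only, are then too narrow.

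The 55774 rows held 55487 identifiers; 287 repeated rows were identical and were used once. Genes were filtered with filterByExpr, which kept 21780, and scaled by TMM. Counts of all 15 libraries were fitted with edgeR 4.0.16 (glmQLFit, glmQLFTest) in R 4.3.3 with limma 3.58.1, and DESeq2 1.42.0 was an alternative. The scripts were tested on simulated data. Levels per kilobase used the exons of GENCODE M21. Groups came from library names and replicate numbers from titles.

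Members and lists were chosen with earlier results of these data known. Named were all 10 members, up to 3 genes with the smallest adjusted p per list and comparison, Csf1r, P2ry12 and Lyz1, and the 3 genes most correlated with each member (some genes under this rule are not reported here); Cd74 in the account of 1 library, Ms4a15 and BE692007 were named after their values were seen. Alternatives were other scalings, other filters, DESeq2, a replicate block, a fit of the 6 libraries compared, each library left out and, added later, an olfactory bulb covariate.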

Additional observations from a re-analysis of the deposited data

How the results depend on the processing

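Fold changes were counted here for all 10 members in 6 comparisons, each group against NT and PLX3X_CD30 and IR-BMT against PLX3X_CD0. Some of these values are not printed above. Also counted were Hpgd in PLX3X_CD0 against PLX1X, and Lyz2, Ms4a7 and Hpgd in IR-BMT against PLX3X_CD30. The other members in those last 2 comparisons are not counted here. Of 863 values of these fold changes under the alternatives, 765 kept direction and side of the threshold, 64 no longer passed, 14 newly passed and 20 changed sign; 0 of those that changed sign had passed. Of 100 levels rescaled, 2 moved by more than 1 SD, Tmem176a in IR-BMT (11.2 CPM) and Emilin2 in NT (5.46 CPM), both with library totals. For the changes that follow, the cause was not tested unless the setting uses fewer libraries or genes. Fitting only the 6 libraries compared left 4 members in PLX1X (2143 of all genes), 4 in PLX3X_CD0 (2601) and 359 of all genes in PLX3X_CD30 against NT, and 2 members in PLX3X_CD30 and 4 in IR-BMT against PLX3X_CD0. A stricter filter took Ms4a7, Ms4a6c and Lilra5 out of the test. It left 5 members called in PLX3X_CD0 against NT and 4 in IR-BMT against PLX3X_CD0, where DESeq2, with all 10 members in the fit, also called 4. Without a filter, members called were 2 in PLX3X_CD30 against NT and 1 in IR-BMT against PLX3X_CD30, and all genes called were 1186 in PLX3X_CD0 against PLX1X and 1395 in PLX3X_CD30 against PLX3X_CD0. The bulb covariate, chosen after seeing the data, gave 2416 of all genes in PLX3X_CD30 against NT, 942 in PLX3X_CD0 against PLX1X (DESeq2: 1046) and 7 members in PLX3X_CD30 against PLX3X_CD0.

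With 1 library left out, members called against NT were 4 to 8 in PLX1X, 5 to 8 in PLX3X_CD0, 0 to 1 in PLX3X_CD30 and 1 to 2 in IR-BMT, and against PLX3X_CD0 2 to 5 in PLX3X_CD30 and 3 to 7 in IR-BMT. All genes called were then 608 to 1714 in PLX3X_CD30 against NT, 150 to 289 in PLX3X_CD0 against PLX1X, 384 to 563 in PLX3X_CD30 and 3029 to 4440 in IR-BMT against PLX3X_CD0, and 1975 to 3528 in IR-BMT against PLX3X_CD30. Among these fold changes, changes of sign with 1 library left out, none of a passed value, were Ms4a7 (-0.66 to 0.49) and Lilra5 (-0.31 to 0.20) in PLX3X_CD30 against NT; Ms4a7 (-0.51 to 0.06), Lyz2 (-0.15 to 0.26), Cybb (-0.23 to 0.72), Tmem176b (-0.13 to 0.07) and Lilra5 (-0.71 to 0.06) in IR-BMT against NT; Clec12a (-0.40 to 0.01) and Emilin2 (-0.17 to 0.05) in PLX3X_CD30 and Emilin2 (-0.20 to 0.01) in IR-BMT against PLX3X_CD0; and Ms4a7 (-0.68 to 0.47) in IR-BMT against PLX3X_CD30. Others were Lyz2 in IR-BMT against NT with library totals (-0.09) and the bulb covariate (-0.07), Emilin2 there with totals (-0.06) and Lilra5 in PLX3X_CD30 with the covariate (0.02).

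Replicate numbers did not pair the libraries: deviations of same-numbered libraries correlated at -0.09 to 0.23, above 0.1 in 4 of 30 pairs. With the replicate number as a block, 7, 8, 1 and 2 members were called in PLX1X, PLX3X_CD0, PLX3X_CD30 and IR-BMT against NT (in PLX1X without Cybb and Emilin2 and with Tmem176a, the only members whose call the block changed), 4 and 7 in PLX3X_CD30 and IR-BMT against PLX3X_CD0, and Ms4a7 in PLX3X_CD30 came to -0.07 against NT. Ms4a7, Ms4a6c and Lilra5 rest on fewer than 50 counts per library, which limits their precision.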
